A study of Mus musculus with 8 samples.

Results

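Myc, which encodes a transcription factor of cell growth and metabolism, and Pvt1, the long noncoding RNA gene next to it, were followed here through their chromatin loops in mouse pancreatic cancer cells. Members were all loops on chromosome 15 with an anchor at the Myc promoter (chr15:61982799-61989222, mm10) or overlapping Pvt1 (chr15:62037986-62378096). A loop is a pair of regions, its anchors, found in contact by Hi-ChIP, an assay that pulls down 1 protein together with the DNA contacts made at its binding sites. This gave 368 distinct loops of 249200 in all, or 616 of the 384180 entries of the 4 lists. They used 18 of 30542 anchors, of which 1 lay at the Myc promoter and 17 in Pvt1. The Myc anchor had 45 distinct loops and the Pvt1 anchors 340, and the 17 loops that join Myc to Pvt1 count under both.

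The study carried out FOXA1 and HNF4G Hi-ChIP in 2 KPC cell lines, 1 from a primary tumour and 1 from a matched liver metastasis (liver mets), grown in DMEM, with 2 replicates per group. KPC is a genetically engineered mouse model of pancreatic cancer, and all 8 samples carry the genotype label WT and the treatment label Untreated. The alleles and Cre driver of the mice are not given in the sources used here, and each condition is 1 cell line, so a difference between tumour and liver mets cannot be told apart from a difference between these lines. Each group has 1 loop list over both replicates, so no test between groups was possible. Intervals in brackets are 95% intervals for counting error only, and loops enter them as if independent, although many have an anchor in common. The lists hold no expression values, so the labelled cell type was not checked against its markers.

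In many cell types the Myc gene is driven by enhancers that lie far away on both sides, in a stretch of the genome with few other protein-coding genes. Pvt1 holds several such enhancers in its introns, and in other systems its promoter is known to compete with the Myc promoter for them. FOXA1 is a pioneer factor that binds forkhead motifs at enhancers, HNF4G is a nuclear receptor of endodermal tissues, and CTCF is the factor at which extruded loops usually stop.

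Myc (ENSMUSG00000022346.15, plus strand, chr15:61985391-61990374) starts inside its promoter anchor, which is 6424 bp wide. Pvt1 (ENSMUSG00000097039.8, plus strand, 340 kb long) begins 52 kb downstream, inside an anchor of 1488 bp that is called the Pvt1 promoter anchor. The anchor at 194 kb also has the start of a Pvt1 transcript within 2 kb, but it is counted below as an anchor inside Pvt1. Distances below run between anchor midpoints and are counted from the Myc anchor, upstream towards lower coordinates. Motifs were searched as exact matches on both strands, TGTTTAC for FOXA, CAAAGTCCA for HNF4 and the core consensus of CTCF, and no match in the anchors described here overlapped another. The windows below are shown because they hold the FOXA and HNF4 matches of 8 Myc partners that recur in the results. Each is the plus strand of GRCm38 (mm10) from 60 bases before to 60 bases after the match, which is in capitals. A match on the minus strand reads as the reverse complement.
538 kb upstream, FOXA match on the plus strand (chr15:61446171-61446297): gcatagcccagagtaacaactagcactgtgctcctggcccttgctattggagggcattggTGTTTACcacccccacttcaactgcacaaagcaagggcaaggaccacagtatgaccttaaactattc
452 kb upstream, FOXA match on the plus strand (chr15:61535566-61535692): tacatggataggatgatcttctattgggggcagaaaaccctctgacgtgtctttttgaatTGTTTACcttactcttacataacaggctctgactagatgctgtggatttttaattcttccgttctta
133 kb downstream, in Pvt1, FOXA match on the minus strand (chr15:62118986-62119112): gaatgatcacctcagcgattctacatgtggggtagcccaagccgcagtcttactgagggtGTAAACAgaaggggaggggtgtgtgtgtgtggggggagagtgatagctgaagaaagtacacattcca
142 kb downstream, in Pvt1, FOXA match on the minus strand (chr15:62127887-62128013): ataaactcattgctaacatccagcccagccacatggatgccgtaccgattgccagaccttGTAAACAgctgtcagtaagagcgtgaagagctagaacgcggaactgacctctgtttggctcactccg
142 kb downstream, in Pvt1, FOXA match on the minus strand (chr15:62128635-62128761): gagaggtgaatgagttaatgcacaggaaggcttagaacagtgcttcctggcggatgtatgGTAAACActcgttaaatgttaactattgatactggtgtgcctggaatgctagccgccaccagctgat
152 kb downstream, in Pvt1, HNF4 match on the plus strand (chr15:62138571-62138699): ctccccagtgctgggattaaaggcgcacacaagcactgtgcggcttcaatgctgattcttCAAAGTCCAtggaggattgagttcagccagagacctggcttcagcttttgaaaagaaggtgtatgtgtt
152 kb downstream, in Pvt1, FOXA match on the plus strand (chr15:62139249-62139375): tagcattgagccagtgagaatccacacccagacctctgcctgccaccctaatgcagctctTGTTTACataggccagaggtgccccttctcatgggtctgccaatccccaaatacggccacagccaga
343 kb downstream, in Pvt1, FOXA match on the plus strand (chr15:62328390-62328516): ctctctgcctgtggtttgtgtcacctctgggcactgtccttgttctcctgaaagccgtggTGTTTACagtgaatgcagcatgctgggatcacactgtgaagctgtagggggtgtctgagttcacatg
343 kb downstream, in Pvt1, FOXA match on the minus strand (chr15:62329992-62330118): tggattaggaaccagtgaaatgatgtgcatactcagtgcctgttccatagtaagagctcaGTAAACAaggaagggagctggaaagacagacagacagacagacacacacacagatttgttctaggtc
405 kb downstream, FOXA match on the plus strand (chr15:62388632-62388758): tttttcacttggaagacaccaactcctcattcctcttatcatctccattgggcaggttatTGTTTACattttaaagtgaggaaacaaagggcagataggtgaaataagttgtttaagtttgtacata
1355 kb downstream, FOXA match on the plus strand (chr15:63339876-63340002): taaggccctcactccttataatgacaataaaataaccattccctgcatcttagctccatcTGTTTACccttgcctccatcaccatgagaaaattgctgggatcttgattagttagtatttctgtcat

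All Pvt1 windows lie in Pvt1 introns. The 452 kb upstream window lies in an exon of the long noncoding RNA genes D030024E09Rik and Gm49498, the 1355 kb downstream window in an intron of the long noncoding RNA gene Gm41335, and the 538 kb upstream and 405 kb downstream windows between genes. Of the 17 Pvt1 anchors, 7 (41.2%) held the FOXA letters, compared with 36.6% of all 30542 anchors. The HNF4 letters were found in 1 of the 17 (5.88%), at 152 kb, against 4.40% of all anchors. Among the 43 outside anchors that Myc or Pvt1 contacted, 22 (51.2%) held the FOXA letters and 3 (6.98%) the HNF4 letters. Wider anchors hold more matches: the FOXA letters were found in 27% of all anchors under 2 kb and in 61.9% of those of 5 kb or more. Of the 8 outside partners under 2 kb, 5 held them, and of the 6 Pvt1 anchors under 2 kb, 2 held them. From 2 to 3 kb it was 10 of 20 and 2 of 4, against 35.1% of all anchors. From 3 to 5 kb it was 5 of 13 and 2 of 5, against 47.8%. The direction thus differed between width classes. The CTCF core was in 0 of the 17 Pvt1 anchors and 0 of the 43 outside partners, against 3.81% of all anchors. With so few anchors a count of 0 does not tell their share apart from that of all anchors. The Myc anchor itself held 1 CTCF and 1 FOXA match, both on the plus strand. The anchors at 120 kb and 165 kb, which appear often below, held none of the 3 motifs. Neither did the Myc partners at 92, 515 and 1081 kb downstream or those at 187, 332, 504 and 590 kb upstream.

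Over the lists together, the Myc anchor contacted both flanks and every Pvt1 anchor. In the FOXA1 liver mets list it had 35 loops, in FOXA1 tumour 30, in HNF4G liver mets 25 and in HNF4G tumour 21. Few promoter anchors had more: 1.22%, 1.17%, 0.999% and 2.66% of the 13819 promoter anchors in the same order, where a promoter anchor has a transcription start within 2 kb. Its width moves with this. Among the 1067 promoter anchors of 5 kb or more, 12.5%, 11.2%, 9.56% and 18.9% had more loops than Myc. The liver mets over tumour ratio was 1.17 for FOXA1 (0.696 to 1.97) and 1.19 for HNF4G (0.640 to 2.24), so neither number differed beyond counting error.

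Of the 45 partners, 18 lay upstream of Myc, 17 were the Pvt1 anchors and 10 lay downstream of Pvt1. All 17 Pvt1 anchors were partners of Myc in at least 1 list, as were 18 of the 27 upstream and 10 of the 11 downstream anchors within 2 Mb. Up to 1 Mb, every anchor in reach on either side was a partner in at least 1 list, so these shares differ only beyond it. There, 3 of 12 upstream and 6 of 7 downstream anchors were partners. Within 500 kb, 10 anchors in reach lay upstream and 18 downstream, and the upstream shares below do not allow for this. No other anchor between Myc and Pvt1 was in reach, because the next anchor, over the 3′ end of Myc (chr15:61989771-61992092), lies under the shortest span of 5 kb. The upstream side took 11 of the 35 Myc loops in FOXA1 liver mets (31.4%, 18.6 to 48.0) and 12 of 30 in FOXA1 tumour (40%, 24.6 to 57.7). It took 8 of 25 in HNF4G liver mets (32%, 17.2 to 51.6) and 8 of 21 in HNF4G tumour (38.1%, 20.8 to 59.1). The liver mets minus tumour difference was -8.57 points in the FOXA1 lists (-30.4 to 14) and -6.10 points in the HNF4G lists (-31.8 to 20.1), so both intervals included 0.

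**Figure D1:**
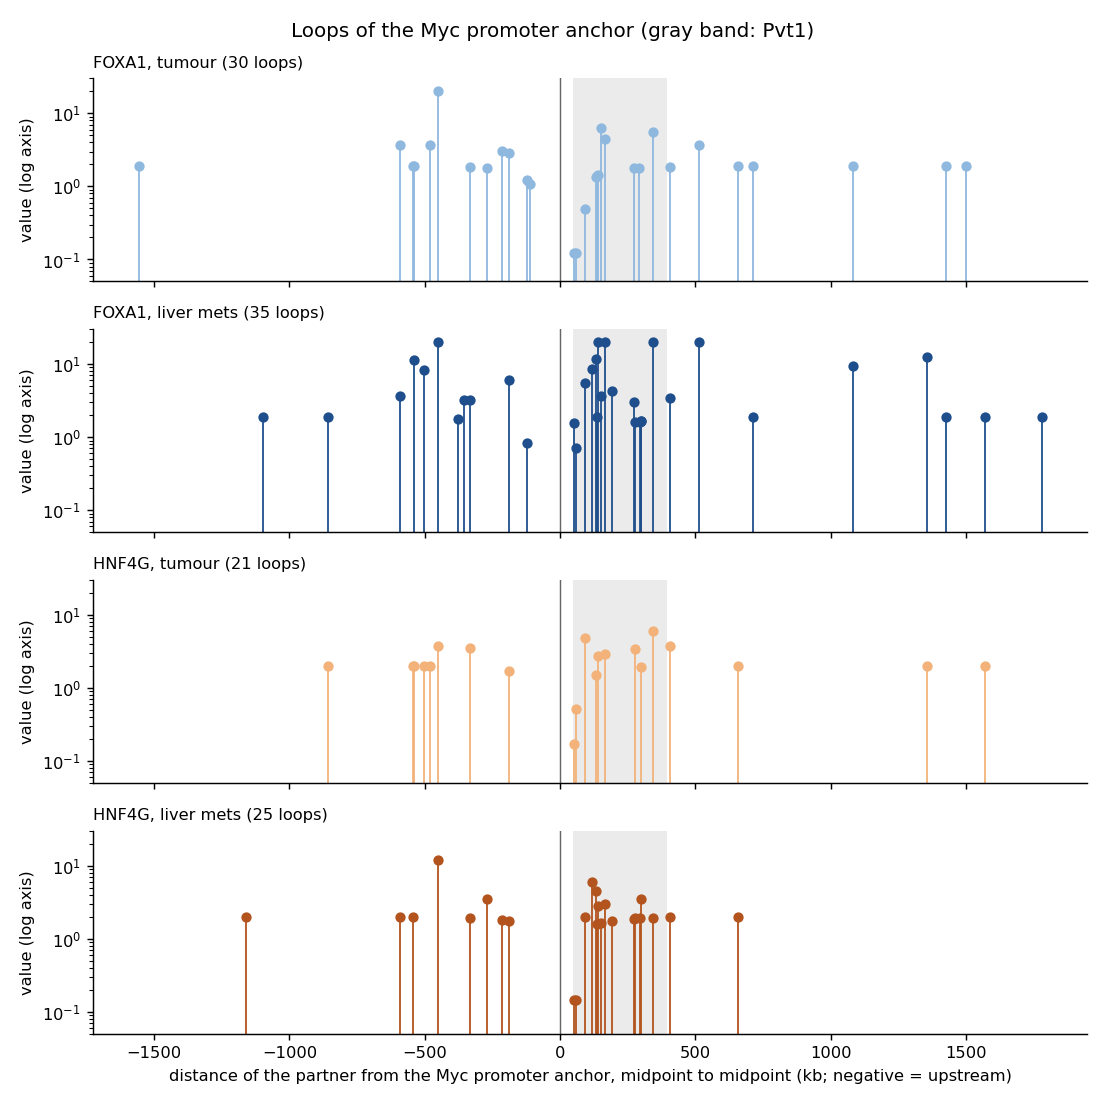
Value of each loop of the Myc promoter anchor (vertical log axis) against the distance of its partner in kb (negative is upstream), in 1 panel per list, with Pvt1 as a gray band. The partner 452 kb upstream reaches 20 in both FOXA1 lists, and 5 partners reach 20 in FOXA1 liver mets.

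Each loop carries a deposited value that ranks its contact and stops at 20. It was read as a −log10 p-value from its range alone, and values of lists of different depth may not be on the same footing. Every list has a lower tied value, shared by 12579 to 14721 of its loops. It is 0.0889 in FOXA1 liver mets, 0.123 in FOXA1 tumour, 0.146 in HNF4G liver mets and 0.171 in HNF4G tumour. Loops at it count below as contacts, as shared partners and as list entries, though on this reading their evidence is weak. The leading Myc partner was the anchor 452 kb upstream (chr15:61530573-61537191), at the 3′ end of D030024E09Rik and Gm49498. Its loop to Myc reached 20 in FOXA1 liver mets, 20 in FOXA1 tumour, 12.0 in HNF4G liver mets and 3.79 in HNF4G tumour. It was the highest or joint highest Myc or Pvt1 loop in 3 lists, all but HNF4G tumour. In HNF4G tumour the first place went to a loop inside Pvt1, from 165 kb to 343 kb, with 12.1, which had 12.8 in FOXA1 liver mets, 6.55 in FOXA1 tumour and 1.74 in HNF4G liver mets.

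Inside Pvt1, 3 Myc contacts reached the top value in FOXA1 liver mets. The loop to 142 kb (chr15:62126945-62129809) had 20 in FOXA1 liver mets, 1.42 in FOXA1 tumour, 2.84 in HNF4G liver mets and 2.72 in HNF4G tumour. The loop to 165 kb (chr15:62149600-62152983) had 20, 4.39, 2.99 and 2.92 in the same order. The loop to 343 kb (chr15:62327264-62330892), the last anchor before the end of Pvt1, had 20, 5.61, 1.94 and 5.93. All 3 were thus in every list, with FOXA1 liver mets the highest. The loop to 120 kb (chr15:62104041-62107583) was in the liver mets lists of both factors, at 8.46 for FOXA1 and 6.01 for HNF4G, and in neither tumour list. The loop to 133 kb (chr15:62117883-62119883) was also higher in liver mets for both, at 11.6 against 1.35 for FOXA1 and 4.55 against 1.51 for HNF4G. By contrast, the loop to 152 kb (chr15:62136338-62140163), the anchor with both a FOXA and an HNF4 match, had 3.69 in FOXA1 liver mets, 6.20 in FOXA1 tumour, 1.65 in HNF4G liver mets and no entry in HNF4G tumour.

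Beyond Pvt1, the partner 515 kb downstream (chr15:62500550-62502007) had 20 in FOXA1 liver mets and 3.70 in FOXA1 tumour, and no HNF4G list held its Myc loop. The partner at 405 kb (chr15:62388104-62393804), between genes and just past the end of Pvt1, was in all 4 lists at 3.39, 1.87, 1.96 and 3.71. Upstream, the partners at 332 kb (chr15:61653039-61655856), in a D030024E09Rik intron, and at 187 kb (chr15:61797057-61801059), between genes, completed the set. The first had 3.23, 1.83, 1.91 and 3.53 in FOXA1 liver mets, FOXA1 tumour, HNF4G liver mets and HNF4G tumour. The second had 6.15, 2.87, 1.75 and 1.72. With the 7 Pvt1 anchors at 52, 58, 92, 133, 142, 165 and 343 kb, these made 11 Myc partners in all 4 lists. The loop to the Pvt1 promoter anchor at 52 kb was the weakest of the 11 in FOXA1 liver mets but for the one at 58 kb, with 1.57 there, 0.123 in FOXA1 tumour, 0.146 in HNF4G liver mets and 0.171 in HNF4G tumour. The last 3 are the lower tied values of their lists.

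Of the other 9 Pvt1 anchors, 8 are given here and the one at 291 kb with the comparison of the lines. The loop to 92 kb had 5.53 in FOXA1 liver mets, 0.485 in FOXA1 tumour, 1.99 in HNF4G liver mets and 4.87 in HNF4G tumour. It was thus high in FOXA1 liver mets and in HNF4G tumour. The loops to 136 kb (chr15:62120760-62123133) and 272 kb were in all lists but HNF4G tumour, at 1.87, 1.37 and 1.57 for the first and 3.02, 1.76 and 1.88 for the second. The loops to 194 kb (chr15:62177233-62182558), an anchor over an exon of Pvt1, and to 295 kb (chr15:62280295-62282163) were in the liver mets lists only. The first had 4.31 for FOXA1 and 1.76 for HNF4G, and the second 1.62 and 1.90. The loops to 276 kb (chr15:62260842-62262661) and 301 kb were in all lists but FOXA1 tumour. At 276 kb the highest was HNF4G tumour, with 3.39, and at 301 kb HNF4G liver mets, with 3.53. The loop to 298 kb (chr15:62282822-62284526) was in FOXA1 liver mets only, with 1.65.

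Upstream within 500 kb, 7 further anchors contacted Myc in 1 or 2 lists. In the D030024E09Rik gene, the loops to 377 kb (chr15:61608283-61610616), with 1.76, and to 354 kb (chr15:61631022-61632712), with 3.23, were in FOXA1 liver mets only. The loop to 268 kb (chr15:61716586-61718636) had 1.77 in FOXA1 tumour and 3.46 in HNF4G liver mets, and the loop to the start of D030024E09Rik at 214 kb (chr15:61770294-61772825) had 3.03 and 1.81 in these lists. Neither was in FOXA1 liver mets. Between genes, the loop to 479 kb (chr15:61505676-61508041) was in both tumour lists only, at 3.64 for FOXA1 and 1.98 for HNF4G. The loop to 121 kb (chr15:61863900-61865746) had 0.825 in FOXA1 liver mets and 1.23 in FOXA1 tumour, and the loop to 112 kb (chr15:61872690-61874932) had 1.09 in FOXA1 tumour only.

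Long partners of Myc, 500 kb or more away, were 12 in FOXA1 liver mets, 10 in FOXA1 tumour, 4 in HNF4G liver mets and 7 in HNF4G tumour. On the upstream side they began with a cluster of 4 anchors between genes at 504, 538, 544 and 590 kb. The partner at 538 kb (chr15:61445530-61449713) had 11.3 in FOXA1 liver mets, 1.90 in FOXA1 tumour and 1.99 in HNF4G tumour, and the one at 504 kb (chr15:61480900-61483654) had 8.38 in FOXA1 liver mets and 1.98 in HNF4G tumour. The partner at 590 kb (chr15:61394648-61398002) had 3.63 in FOXA1 liver mets, 3.74 in FOXA1 tumour and 1.99 in HNF4G liver mets, and so did not rank FOXA1 liver mets first. The partner at 544 kb (chr15:61441124-61442616) was absent from FOXA1 liver mets and had 1.91 in FOXA1 tumour and 1.99 in each HNF4G list. Farther upstream, 859 kb (chr15:61126686-61128307) had 1.87 in FOXA1 liver mets and 1.99 in HNF4G tumour, and 3 partners were in 1 list each. These were 1097 kb (chr15:60887651-60889866) in FOXA1 liver mets, 1557 kb (chr15:60427069-60430919) in FOXA1 tumour and 1162 kb (chr15:60822386-60826063) in HNF4G liver mets. The last is the only Myc partner at the start of another protein-coding gene, Fam84b, whose start the anchor shares with the noncoding 9930014A18Rik.

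Downstream, the long contacts fell in 3 long noncoding RNA genes or between genes. The partner at 1355 kb (chr15:63338986-63343671), in Gm41335, had 12.5 in FOXA1 liver mets and 1.99 in HNF4G tumour. The partner at 1081 kb (chr15:63065352-63068262), over an exon of Gm30159, had 9.30 in FOXA1 liver mets and 1.91 in FOXA1 tumour. Neither was listed for HNF4G liver mets. The partners in Gm41333, at 659 kb (chr15:62643358-62647468) and 713 kb (chr15:62697673-62700424), had no value above 1.99. The same held for 1425 kb (chr15:63409372-63412932), 1499 kb (chr15:63483997-63486726) and 1572 kb (chr15:63557066-63559539), in Gm41335, and for 1782 kb (chr15:63767055-63768807), between genes. Values of 1.87, 1.91 and 1.99 are each shared by 11456 to 18323 loops of the list concerned, so they do not tell these entries apart from other loops. Between 1 and 2 Mb the downstream side was the denser: Myc contacted 5 of 7 downstream anchors in FOXA1 liver mets, 3 in FOXA1 tumour, 0 in HNF4G liver mets and 2 in HNF4G tumour. It contacted 1, 1, 1 and 0 of the 12 upstream anchors at this distance.

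In FOXA1 liver mets, high values gathered at Myc and Pvt1. A value of 4 or more was held by 37 of 256 Myc and Pvt1 loops in FOXA1 liver mets (14.5%, 10.7 to 19.3), compared with 2.58% of all loops of that list. In FOXA1 tumour it was 5 of 153 (3.27%, 1.40 to 7.42) against 1.75%. In HNF4G liver mets it was 4 of 118 (3.39%, 1.33 to 8.39) against 1.78%, and in HNF4G tumour 4 of 89 (4.49%, 1.76 to 11) against 1.84%. The FOXA1 ratio of such loops, liver mets over tumour, was 7.40 (2.90 to 24.1) against 1.78 (1.68 to 1.88) over all loops, while the HNF4G ratio was 1.00 (0.186 to 5.37). The Myc anchor alone had 14 such loops in FOXA1 liver mets, 4 in FOXA1 tumour, 3 in HNF4G liver mets and 2 in HNF4G tumour. Of 100 kb or more, 17.1% of the FOXA1 liver mets loops of Myc and Pvt1 had this value and 3.16% of all loops of that span.

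Among nearby FOXA1 loops without a Myc or Pvt1 anchor, those with a value of 4 or more were 2 of 121 in liver mets and 4 of 91 in tumour within 2 Mb upstream of Myc. Within 2 Mb downstream of Pvt1 they were 3 of 83 and 1 of 68, numbers too small to order the lines. Over all chromosome 15 loops without a Myc or Pvt1 anchor, these flanks included, the FOXA1 ratio at this value was 1.69 (1.38 to 2.08). For loops of any value it was 1.33 (1.00 to 1.76) in the upstream 2 Mb and 1.22 (0.875 to 1.71) in the downstream 2 Mb. Over all chromosome 15 loops without a Myc or Pvt1 anchor it was 1.20 (1.16 to 1.24).

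The Pvt1 anchors had more loops in liver mets than in tumour for both factors. The Myc ratios were 1.17 for FOXA1 (0.696 to 1.97) and 1.19 for HNF4G (0.640 to 2.24). Their intervals hold the Pvt1 ratios that follow, and a difference between Myc and Pvt1 was not tested. For FOXA1, the Pvt1 anchors had 237 loops in liver mets and 134 in tumour, a ratio of 1.77 (1.43 to 2.20), against 1.21 over all loops. For HNF4G they had 108 and 77, a ratio of 1.40 (1.04 to 1.90), against 1.02. Loops from Pvt1 to anchors outside the 2 genes were 136 and 68 for FOXA1, a ratio of 2.00 (1.48 to 2.72), and 40 and 27 for HNF4G, a ratio of 1.48 (0.887 to 2.51). Loops with both anchors in Pvt1 were 85 and 55 for FOXA1 (1.55, 1.09 to 2.21), and 53 and 41 for HNF4G (1.29, 0.844 to 1.99). Myc to Pvt1 loops were 16 in FOXA1 liver mets, 11 in FOXA1 tumour, 15 in HNF4G liver mets and 9 in HNF4G tumour. Loops from Myc to anchors outside Pvt1 were 19, 19, 10 and 12, and thus were no more numerous in liver mets for either factor.

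**Figure D2:**
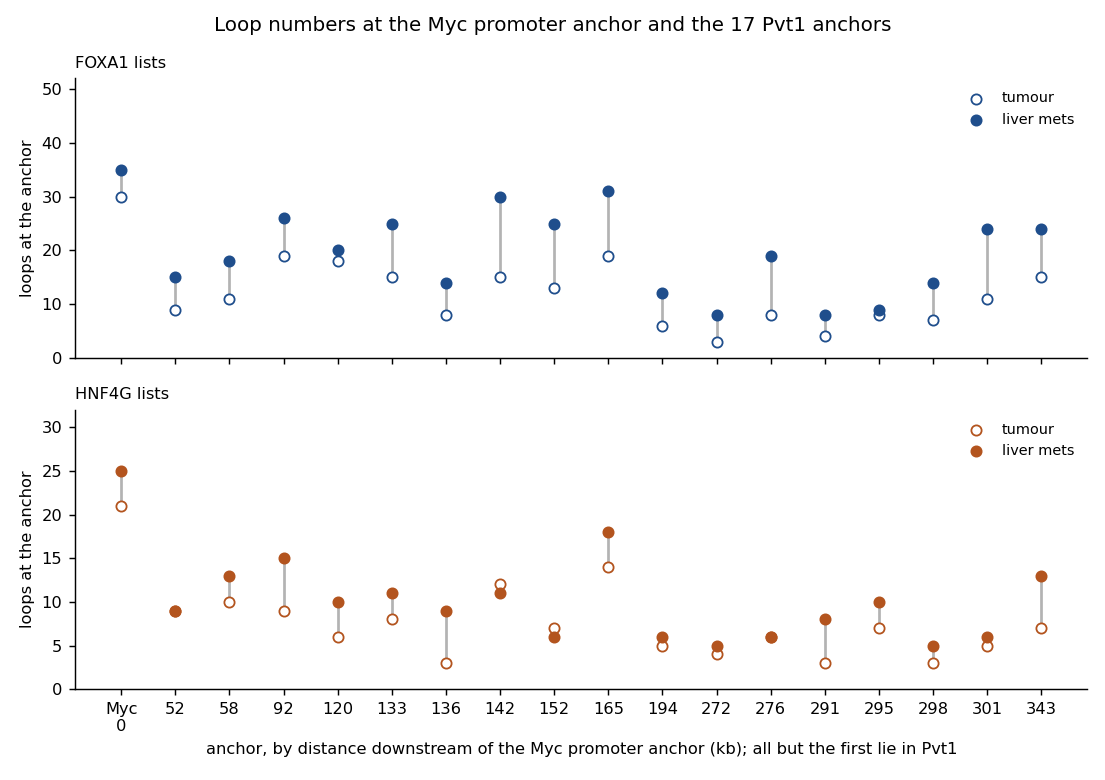
Number of loops (vertical axis) at the Myc promoter anchor and each of the 17 Pvt1 anchors, ordered by distance from Myc in kb, with FOXA1 above and HNF4G below. Open circles are tumour and filled circles liver mets. For FOXA1 the filled circle is the higher at all 17 Pvt1 anchors, and for HNF4G at 13. Over all anchors with 20 or more loops, the median liver mets over tumour ratio was 1.20 for FOXA1 and 1.00 for HNF4G.

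Every Pvt1 anchor had more FOXA1 loops in liver mets than in tumour. This was also the usual direction elsewhere. Over the 8018 anchors with 20 or more loops in the 2 FOXA1 lists, the ratio had quartiles of 1.00 and 1.48. Of the 13 Pvt1 anchors with 20 or more loops in the 2 FOXA1 lists together, 11 had a ratio of 1.5 or more, compared with 24.9% of the 8018 anchors with that many, and 0 had 2/3 or less, compared with 3.38%. The 17 ratios, some of them from fewer than 20 loops, had a median of 1.75 and ran from 1.11 to 2.67. The median over the 8018 anchors, all with 20 or more, was 1.20. The 17 anchors share loops with each other and are not independent. For HNF4G, 13 Pvt1 anchors were higher in liver mets, 2 lower and 2 equal. The median HNF4G ratio over the 3991 anchors with 20 or more loops was 1.00, with quartiles of 0.786 and 1.20. Of the 5 with 20 or more loops, 2 had a ratio of 1.5 or more, against a background of 9.67%, and 0 had 2/3 or less, against 14.1%.

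The anchors with most loops lay in the first part of Pvt1. The anchor at 165 kb, in an intron, was the fullest, with 31 loops in FOXA1 liver mets, 19 in FOXA1 tumour, 18 in HNF4G liver mets and 14 in HNF4G tumour. The intronic anchor at 142 kb had 30, 15, 11 and 12, a FOXA1 ratio of 2.00 (1.04 to 4). The anchor at 92 kb, over the small RNA gene Gm27782, had 26, 19, 15 and 9. All 3 had more FOXA1 loops in liver mets, and the one at 142 kb had 1 loop fewer for HNF4G. The anchor at 301 kb (chr15:62286253-62288213) had 24, 11, 6 and 5, a FOXA1 ratio of 2.18 (1.03 to 4.93), the only other interval above 1. At the lower end, the anchor at 272 kb (chr15:62257360-62259079), over an exon of Pvt1, had 8, 3, 5 and 4 loops. The anchor at 120 kb had the smallest FOXA1 ratio, 1.11, from 20 and 18 loops. The other 11 Pvt1 anchors had 8 to 25 loops in FOXA1 liver mets and 4 to 15 in FOXA1 tumour.

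Within Pvt1, 16 loops were in all 4 lists, of which the anchor at 165 kb took part in 6 and the anchor at 142 kb in 5. The loop from 142 to 343 kb had 6.52 in FOXA1 liver mets, 2.94 in FOXA1 tumour, 5.28 in HNF4G liver mets and 3.16 in HNF4G tumour. The loop from 133 to 301 kb had 12.3 in FOXA1 liver mets and 1.53, 1.73 and 1.68 in the other lists. The loop from 92 to 295 kb was the third of HNF4G tumour, with 5.21, had 3.24 in HNF4G liver mets and was in neither FOXA1 list. It was thus held by the HNF4G lists only, whereas the loop from 133 to 301 kb was in all 4 lists and highest in FOXA1 liver mets.

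A few outside anchors were in contact with many of the Myc and Pvt1 anchors. The anchor 452 kb upstream, the top partner of Myc, contacted 13 of the 18 Myc and Pvt1 anchors in FOXA1 liver mets, 9 in FOXA1 tumour, 4 in HNF4G liver mets and 2 in HNF4G tumour. The anchor at 538 kb upstream contacted 13, 4, 2 and 1. The anchor at 405 kb downstream contacted 12, 9, 6 and 5, the most of any outside anchor over the HNF4G lists together. The anchor over the 3′ end of Myc, too close for a loop to the Myc promoter, contacted 11, 8, 3 and 1 of the 17 Pvt1 anchors. On the far downstream side, 1355 kb contacted 11, 3, 0 and 1 and 1081 kb contacted 10, 4, 2 and 2. The anchor at 713 kb contacted 7, 1, 0 and 0, all but 1 of them in FOXA1 liver mets. Other anchors had another order. The anchor 214 kb upstream, at the start of D030024E09Rik, contacted 2, 5, 4 and 0, with FOXA1 tumour the highest. The anchors 187 kb upstream, with 5, 3, 6 and 2, and 659 kb downstream, with 1, 1, 4 and 2, were highest in HNF4G liver mets.

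**Figure D3:**
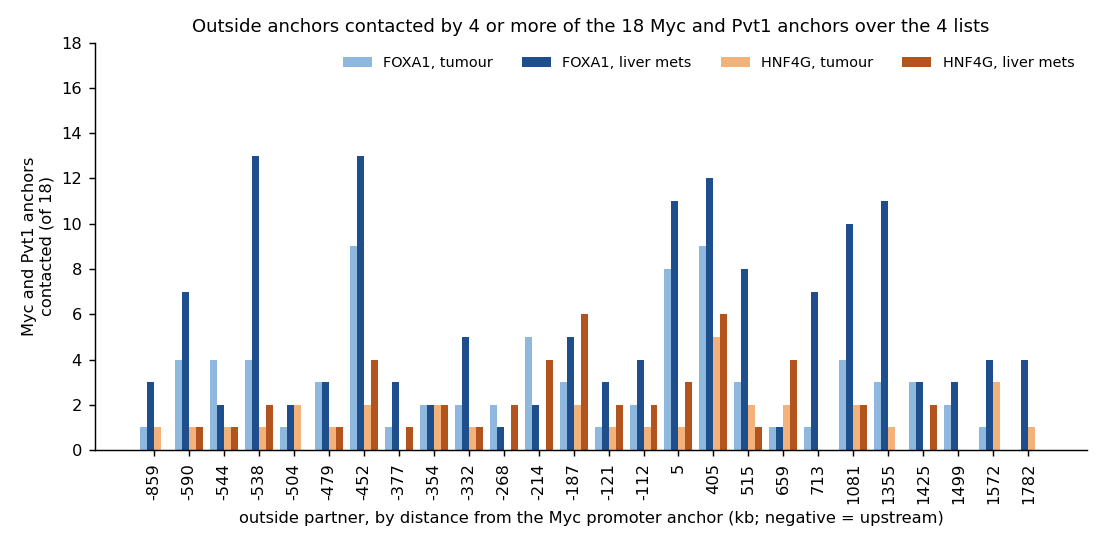
Number of the 18 Myc and Pvt1 anchors contacted (vertical axis) by each outside anchor that reached 4 or more of them over the 4 lists, with 1 bar per list, ordered by distance from Myc in kb. In FOXA1 liver mets the anchors 452 and 538 kb upstream contact 13 each, the highest bars.

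Summed over both genes, outside loops to the upstream side were 76 in FOXA1 liver mets, 48 in FOXA1 tumour, 31 in HNF4G liver mets and 19 in HNF4G tumour. Those to the downstream side were 68, 31, 16 and 19. Both flanks thus had more FOXA1 loops in liver mets, and the upstream flank more HNF4G loops. No interval was computed for these numbers, and the ratios over all loops were 1.21 for FOXA1 and 1.02 for HNF4G. Of the Pvt1 loops to outside anchors, 47.8% in FOXA1 liver mets (39.6 to 56.1) and 52.9% in FOXA1 tumour (41.2 to 64.3) went upstream of Myc. For HNF4G it was 57.5% in liver mets (42.2 to 71.5) and 40.7% in tumour (24.5 to 59.3), and both differences were within counting error, at -5.15 points in the FOXA1 lists (-19.2 to 9.22) and 16.8 points in the HNF4G lists (-7.28 to 38.2).

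Among the Myc and Pvt1 loops, 39.1% in FOXA1 liver mets (33.3 to 45.2) and 34.0% in FOXA1 tumour (27 to 41.8) spanned at least 500 kb, compared with 22.6% and 19.5% over all loops of those lists. For HNF4G they were 14.4% in liver mets (9.19 to 21.9) and 25.8% in tumour (17.9 to 35.8), against 16.9% and 19.1% over all loops. The FOXA1 difference of 5.08 points (-4.64 to 14.4) included 0, and the HNF4G difference was -11.4 points (-22.7 to -0.527). The latter interval included 0 under each alternative tried, with -2.59 points for loops of at least 250 kb, -7.27 points for at least 1000 kb and -1.67 points at 500 kb when values under 2 were dropped. At 1000 kb or more, Myc and Pvt1 had 41 and 20 FOXA1 loops, a ratio of 2.05 (1.17 to 3.69), and 6 and 11 HNF4G loops, a ratio of 0.545 (0.166 to 1.61). The ratios over all such loops were 1.43 and 0.915, and both lie inside these intervals. Between 100 and 500 kb the numbers were higher in liver mets for both factors, at 105 and 63 for FOXA1 (1.67, 1.21 to 2.32) and 67 and 39 for HNF4G (1.72, 1.14 to 2.62). The ratios over all loops of that span were 1.22 and 0.991, of which the first lies inside the FOXA1 interval. Of the loops of 1000 kb or more, 37 of 41 in FOXA1 liver mets and all 20, 6 and 11 in FOXA1 tumour, HNF4G liver mets and HNF4G tumour had the higher tied value. The 4 exceptions are in FOXA1 liver mets.

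The Myc anchor and the Pvt1 promoter anchor, at the gene start, were then compared for the partners that both could reach. The Pvt1 promoter anchor had fewer loops than Myc in every list: 15 in FOXA1 liver mets and 9 in each of the other 3. It is the narrower anchor, and among the 3771 promoter anchors under 2 kb only 4.48%, 14.8%, 8.49% and 9.39% had more loops in FOXA1 liver mets, FOXA1 tumour, HNF4G liver mets and HNF4G tumour. Common partners were 12 of 35 in FOXA1 liver mets (34.3%, 20.8 to 50.8), 6 of 30 in FOXA1 tumour (20%, 9.51 to 37.3), 5 of 26 in HNF4G liver mets (19.2%, 8.51 to 37.9) and 2 of 25 in HNF4G tumour (8%, 2.22 to 25). Of the Pvt1 promoter partners alone, 12 of 13 were common in FOXA1 liver mets and 6 of 7 in FOXA1 tumour. For HNF4G it was 5 of 7 in liver mets and 2 of 7 in tumour. The share of all partners is thus limited by the smaller partner number of the Pvt1 promoter. Other pairs of promoter anchors 25 to 100 kb apart, both with 5 or more loops in the list, shared a median of 19.1%, 18.6%, 18.2% and 17.2%. The Myc and Pvt1 pair was above the upper quartile of 26.7% in FOXA1 liver mets and below the lower quartile of 10.5% in HNF4G tumour, and between the quartiles in the other lists. No partner was common to the 2 promoters in all 4 lists but the one at 58 kb, whose midpoint lies 5.67 kb from that of the Pvt1 promoter anchor.

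**Figure D4:**
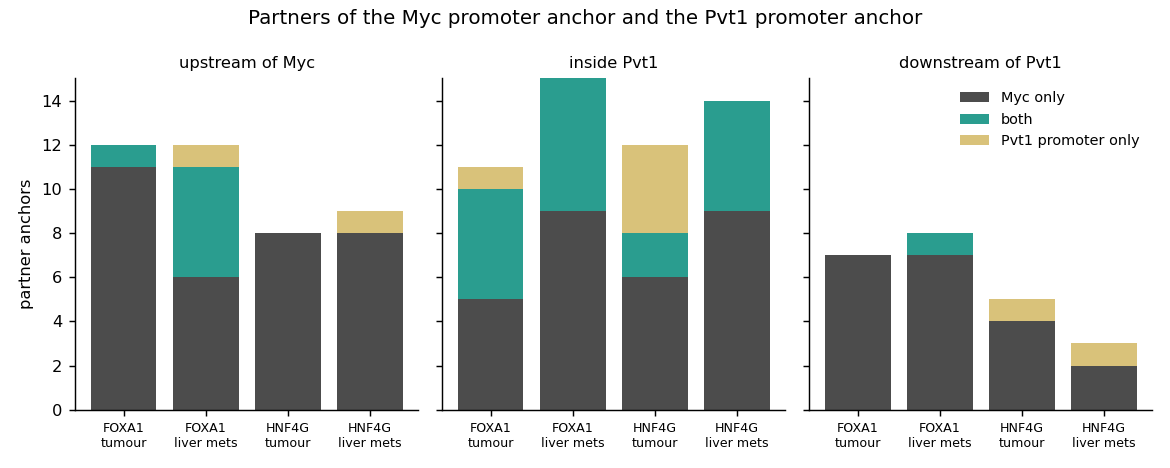
Partner anchors (vertical axis) of the Myc promoter anchor only, of both promoter anchors and of the Pvt1 promoter anchor only, stacked by list, for partners upstream of Myc, inside Pvt1 and downstream of Pvt1. Upstream, the Pvt1 promoter shares 5 partners with Myc in FOXA1 liver mets, 1 in FOXA1 tumour and 0 in both HNF4G lists.

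On the upstream side, few loops of the Pvt1 promoter were listed outside FOXA1 liver mets. Myc contacted 11, 12, 8 and 8 upstream anchors in FOXA1 liver mets, FOXA1 tumour, HNF4G liver mets and HNF4G tumour, and the Pvt1 promoter 6, 1, 1 and 0. Inside Pvt1, Myc contacted 15, 10, 14 and 8 anchors and the Pvt1 promoter 6, 6, 5 and 6. In HNF4G tumour, 4 of these 6 were contacted by the Pvt1 promoter and not by Myc, the most of any list, compared with 0 in FOXA1 liver mets, 1 in FOXA1 tumour and 0 in HNF4G liver mets. They were at 136, 272, 295 and 298 kb, with values of 0.171, 1.80, 1.84 and 1.84. The first is the lower tied value of HNF4G tumour.

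At partners that both promoters contacted, the Myc loop mostly had the higher value. This was so for 11 of 12 in FOXA1 liver mets, 3 of 6 in FOXA1 tumour, 4 of 5 in HNF4G liver mets and 2 of 2 in HNF4G tumour. In FOXA1 liver mets the anchor at 142 kb had 20 to Myc and 0.0889, the lower tied value, to the Pvt1 promoter. The anchor at 165 kb had 20 and 0.596. The anchor 452 kb upstream had 20 and 1.81, and the one at 538 kb upstream 11.3 and 3.65, the highest value of any Pvt1 promoter loop. No Pvt1 promoter loop reached 4 in any list. The Pvt1 promoter loop had the higher value near its own anchor, at 58 kb, with 0.708 to Myc and 0.764 to the Pvt1 promoter in FOXA1 liver mets, 0.123 and 1.54 in FOXA1 tumour and 0.146 and 0.629 in HNF4G liver mets. In HNF4G tumour the same partner had the higher value to Myc, with 0.516 and 0.147. The values of 0.123 and 0.146 to Myc at 58 kb are the lower tied values of their lists. The Pvt1 promoter was also the higher at 92 kb in FOXA1 tumour, with 0.485 to Myc and 1.42 to the Pvt1 promoter. The Pvt1 promoter anchor lies closer to the other Pvt1 anchors than Myc does and is narrower, and the part of distance and width in the values was not tested.

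Of the 368 loops, 29 were in all 4 lists (7.88%, 5.54 to 11.1), compared with 5.28% of all distinct loops, and 214 were in 1 list only. With anchors widened by 5 kb on each side before lists were matched, 124 of the 368 were in all 4 (33.7%), and the share over all loops was not computed for widened anchors. Of the 45 Myc loops, 11 were in all 4. The share in all 4 fell with span, and between 100 and 200 kb it was 11.1% (5.49 to 21.2) against 3.36% over all loops. Between 200 and 500 kb it was 5.26% (2.27 to 11.7) against 1.00%. Of 500 to 1000 kb, 0 of 81 loops were in all 4 lists, which allows a share of up to 3.70%, and of 1000 kb or more 0 of 70, which allows up to 4.29%. The shares over all loops there were 0.291% and 0.0132%, so no difference was detectable.

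**Figure D5:**
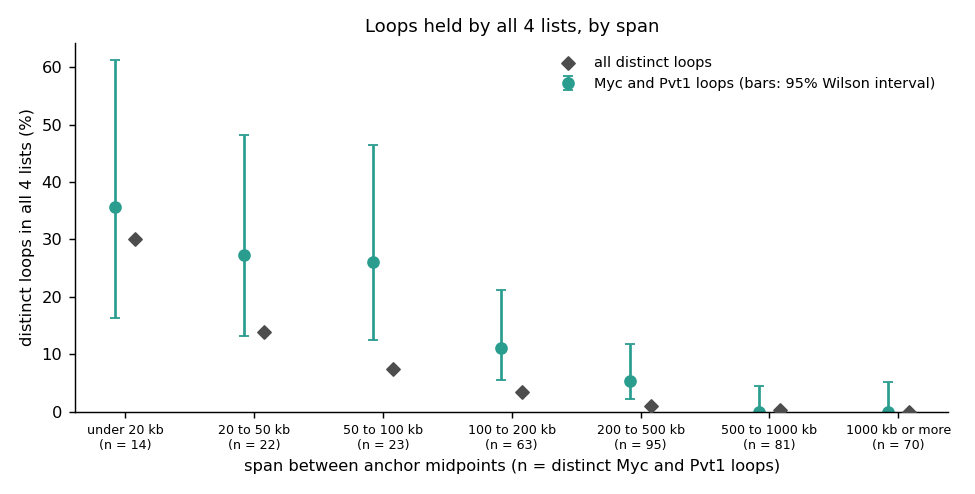
Share of distinct loops in all 4 lists in percent (vertical axis) by span, for Myc and Pvt1 loops (circles, bars are 95% Wilson intervals) and all distinct loops (diamonds). From 50 to 500 kb the circles and their intervals lie above the diamonds, at 26.1% against 7.40% between 50 and 100 kb.

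Between the lines, FOXA1 tumour and liver mets shared 97 Myc and Pvt1 loops, which is 63.4% of the tumour loops and 37.9% of the liver mets loops. Over all loops the shares were 41.1% and 34.0%. HNF4G tumour and liver mets shared 45, or 50.6% of tumour and 38.1% of liver mets loops, against 33.6% and 32.9%. For Myc to Pvt1 loops, 10 of the 11 in FOXA1 tumour and all 9 in HNF4G tumour were also in the liver mets list of that factor. The exception was the loop to 291 kb (chr15:62275558-62278817), in FOXA1 tumour alone, with 1.79. The Myc contacts with Pvt1 in tumour were thus a subset of those in liver mets but for this loop, and liver mets added 6 for each factor. The liver mets lists held 16 of the 17 distinct Myc to Pvt1 loops for FOXA1 and 15 for HNF4G. Nearly any tumour contacts would therefore fall among them, and no conclusion is drawn from this overlap.

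The genes that encode other members of the MYC network (Mycn, Mycl, Max, Mxd1, Mxi1, Mxd3, Mxd4, Mnt, Mga, Mlx, Mlxip and Mlxipl) are partners, relatives and antagonists of Myc. All but Mycl, 11 of 12, had a promoter anchor. For FOXA1, 8 of them had more loops in liver mets, 2 fewer and 1 the same number, and for HNF4G 5 had more, 5 fewer and 1 the same number. Over all anchors with 20 or more loops the median ratio was 1.20 for FOXA1 and 1.00 for HNF4G. These counts are thus not particular to the network genes. Loops were summed over the promoter anchors of a gene, 3 for Mxi1 and 2 each for Mnt and Mlxipl. The backgrounds that follow count single anchors. Of the 4 with 20 or more loops in the 2 FOXA1 lists, 0 had a ratio of 1.5 or more, against 24.9% of all anchors with that many, and 0 had 2/3 or less, against 3.38%. Their median was 1.05. Of the 4 with as many in the HNF4G lists, 2 had 1.5 or more, against 9.67%, and 1 had 2/3 or less, against 14.1%, with a median of 1.19. The first 2 were Mlx, a dimer partner, with 24 and 14 loops (1.71, 0.852 to 3.58), and Mnt, a repressor that binds Max, with 23 and 15 (1.53, 0.766 to 3.16). The last was Mlxipl, a glucose-responsive factor, with 11 and 20 (0.550, 0.238 to 1.20), and all 3 intervals included 1.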

How the data were processed

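Hi-ChIP for FOXA1 and HNF4G was carried out on 8 samples, 2 replicates for each factor and cell line. Per the submitters' processing notes, reads were processed with HiC-Pro 3.1.0 on mm10 (GRCm38), and per the study's methods the authors called loops with hichipper. The 4 deposited interact files hold 1 loop list per group, and how the replicates were joined is not given in the sources used here. The deposited value, computed by the authors, was read as −log10 p from its range, and the deposited score is a display number, 10 times the whole part of that value plus 1, and was not used. The read depth behind the lists is unknown, so loop numbers and values also move with it.

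Loops were matched between lists by identical anchors, and members were loops whose anchor overlapped the Myc promoter region or Pvt1 by at least 1 bp. Distances ran between anchor midpoints. Anchors were annotated with GENCODE M21, and a promoter anchor had a transcription start within 2 kb. The MYC network genes and all lists and members were chosen with earlier results of these data known. With 1 list per group no test was made. Ratios of loop numbers have exact Clopper-Pearson intervals, shares Wilson intervals and differences of shares Newcombe intervals, all at 95%. The background for ratios was every anchor with 20 or more loops in the 2 lists of a factor together. A count of 0 allows a share of up to 3 counts of the total. Named were Myc, Pvt1, each Pvt1 anchor, Myc partners in all 4 lists or 500 kb or more away, the 3 loops of highest value per list, partners common to both promoters in all lists and the 3 partners of each Pvt1 anchor with the most lists. The last did not separate partners, because of ties, and is not described. Other partners named were chosen after their values were seen. The interval and ratio code was tested on simulated data. Alternatives were a minimum value, span limits, lists of the same number of loops, widened anchors and which loops or partners counted. Python 3.11.15, pandas 2.3.3, scipy 1.17.1 and matplotlib 3.10.9 were used.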

Additional observations from a re-analysis of the deposited data

Results flagged for a closer look

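In 5 measures the FOXA1 lists moved one way between tumour and liver mets and the HNF4G lists the other way, and in each case the difference was not tested. The share of Myc and Pvt1 loops of 500 kb or more was higher in liver mets by 5.08 points for FOXA1 and differed by -11.4 points for HNF4G. For the Myc anchor alone the same share differed by 0.952 points for FOXA1 (-21.4 to 22.7) and by -17.3 points for HNF4G (-40.7 to 7.33). The share of outside Pvt1 loops that went upstream of Myc differed by -5.15 points for FOXA1 and by 16.8 points for HNF4G. The liver mets over tumour ratio of Myc and Pvt1 loops of 500 to 1000 kb was 1.84 for FOXA1 (1.18 to 2.93) and 0.917 for HNF4G (0.366 to 2.27), beside 1.38 and 0.898 over all loops of that span. For loops of 1000 kb or more it was 2.05 for FOXA1 and 0.545 for HNF4G, beside 1.43 and 0.915 over all such loops.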

How the results depend on the processing

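Of 61 alternative values over 21 results, 39 stayed inside the interval of the main value, and 22 fell outside it. No value whose main interval excluded no change turned its direction. Among the others, the FOXA1 Myc ratio of 1.17 was 0.967 divided by list size, the HNF4G Myc ratio of 1.19 was 0.875 at a value of 2 or more, and the HNF4G upstream difference of -6.10 points was 3.57 there, all with intervals that include no change. With only loops of a value of 2 or more, the FOXA1 ratio was 2.22 at the Myc anchor and 3 at the Pvt1 anchors. The share of loops of 500 kb or more was then 20% in FOXA1 tumour, 6.67% in HNF4G liver mets and 8.33% in HNF4G tumour, and the FOXA1 difference was 15.3 points, a setting chosen after seeing the data. With 250 kb called long, the shares were 55.1% in FOXA1 liver mets, 51% in FOXA1 tumour, 39% in HNF4G liver mets and 41.6% in HNF4G tumour, and with 1000 kb 16%, 13.1%, 5.08% and 12.4%. The HNF4G difference of -11.4 points was -2.59 at 250 kb (-15.9 to 10.6), -7.27 at 1000 kb (-16.1 to 0.422) and -1.67 at a value of 2 or more (-29.3 to 22.5). Partners common to the Myc and Pvt1 promoters at a value of 2 or more were 5% in FOXA1 liver mets and 0 in the other lists. Without partners inside Pvt1, also chosen after seeing the data, they were 30% in FOXA1 liver mets, 5.26% in FOXA1 tumour and 0 in both HNF4G lists. With anchors widened by 5 kb on each side, 33.7% of the loops were in all 4 lists. The cause of these shifts was not tested. Divided by list size, the FOXA1 ratio at Pvt1 was 1.47. The lists of the same number held 114143 and 104136 FOXA1 loops, because of tied values.

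No paired analysis was possible because each group has 1 loop list over both replicates, and for the same reason no replicate was left out in turn. The unknown depth limits every comparison of loop numbers between lists.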
